A study of Mus musculus with 2 samples.

Results

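The 8 genes here belong to the gastric chief cell. Of these, 6 encode secreted proteins of digestion and 2 encode transcription factors, and all were followed in RNA sequencing of the mouse gastric corpus. The members were listed by name, as the pepsinogen, chymosin, intrinsic factor, lipase, chitinase and zymogen regulator genes Pgc, Pga5, Cym, Cblif, Lipf, Chia1, Bhlha15 and Xbp1. All 8 were found among the 37681 genes of the files, Cblif under its older symbol Gif. The study sorted cells with activity of Hdc, the histidine decarboxylase gene, from the corpus to ask where histamine-making cells originate. A cyan fluorescent protein transgene, Hdc-CFP, marked these cells. The cells positive for the marker gave 1 library, called CFP+ here, and the corpus epithelium from which they had been removed gave the other, called depleted. Both came from C57BL/6 mice carrying the Hdc-CFP transgene, so the depleted cells carried it too. The age, number and pooling of the mice, and the sequences that drive the transgene, are not given in the sources used here.

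Chief cells lie at the base of the corpus glands and release zymogen granules filled with pepsinogens, the inactive precursors of the stomach's proteases. In mice the same cells also make intrinsic factor, which carries vitamin B12, and the acidic chitinase. They arise from mucous neck cells as these move down the gland. Xbp1, activated by the endoplasmic reticulum sensor IRE1, expands the secretory machinery. Bhlha15, also called Mist1, acts below Xbp1 to build the large granule store. Neither factor belongs to chief cells alone: pancreatic acinar cells use both, and Xbp1 serves secretory cells in general.

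The start regions of the genes are shown for reference, and whether they bear on the levels in the libraries was not tested. Promoter sequences from RefSeq (GRCm38.p6) matched 7 of the 8 members. Below are the 100 bases before the start of 6 of them, 5′ to 3′ on the gene's strand, in lower case. Capitals mark the TATA box letters TATAAA, a core promoter element, and the E-box letters CANNTG, each searched on both strands.
Pgc (chr17:47726742-47726841, plus strand): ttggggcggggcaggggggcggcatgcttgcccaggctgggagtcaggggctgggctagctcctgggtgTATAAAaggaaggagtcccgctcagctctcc
Cym (chr3:107221733-107221832, minus strand): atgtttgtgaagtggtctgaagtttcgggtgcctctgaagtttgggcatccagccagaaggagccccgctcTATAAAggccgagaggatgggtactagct
Chia1 (chr3:106113282-106113381, plus strand): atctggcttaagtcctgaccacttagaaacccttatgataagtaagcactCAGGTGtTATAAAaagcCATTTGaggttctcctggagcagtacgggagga
Cblif (chr19:11747459-11747558, plus strand): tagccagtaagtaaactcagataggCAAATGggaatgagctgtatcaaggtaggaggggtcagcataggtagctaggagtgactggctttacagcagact
Bhlha15 (chr5:144190186-144190285, plus strand): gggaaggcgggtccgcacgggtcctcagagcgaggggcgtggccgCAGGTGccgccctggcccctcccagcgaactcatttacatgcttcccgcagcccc
Xbp1 (chr11:5520541-5520640, plus strand): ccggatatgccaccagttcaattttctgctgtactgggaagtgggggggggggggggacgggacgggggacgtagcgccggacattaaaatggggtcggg

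Within 250 bases before the start, TATAAA stood in 3 of the 7 promoters, those of Pgc, Cym and Chia1, and in 13.0% of all 27025 promoters in the table. Its first base on the gene's strand was at -31 in Pgc, -29 in Cym and -43 in Chia1, where -1 is the last base before the start. For Chia1 and Lipf the sequence after the start was not found unbroken in a GENCODE M21 transcript of the gene. Positions in these promoters are therefore less certain than in the others. The promoters of Cblif, Lipf, Bhlha15 and Xbp1 held none of these exact letters, and other forms of the TATA box were not searched. The E-box CANNTG, the class of site bound by MIST1 and its relatives, had 3 matches in Chia1, 1 in Cblif, 4 in Lipf, 3 in Bhlha15, 2 in Xbp1 and 0 in Pgc and Cym, against at least 1 match in 66.0% of all promoters. The form CATATG, which MIST1 is known to bind, matched 0 of the 7 promoters and 3.47% of all. ACGTG, found in sites of XBP1, matched 0 of the 7 and 16.6% of all, and the longer endoplasmic reticulum stress element ERSE-I matched 0 of the 7 and 0.122% of all. CATATG is a case of CANNTG. These are letter matches in this window only.

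Reads assigned to genes numbered 10736538 for the CFP+ and 50928524 for the depleted cells. Levels are normalised CPM, which are counts per 1000000 gene counts scaled with edgeR's trimmed-mean (TMM) factors, and brackets give exact 95% intervals for counting error alone. Since each group is 1 library, no test was possible and each comparison is of these libraries, not of replicated groups. A gene was measured with at least 10 counts in at least 1 library, and called higher or lower when it differed by at least 2-fold with an interval clear of 1. Of 16682 measured genes, 21.9% were called lower in the CFP+ library and 21.9% higher, so that 49.99% of called genes were lower. Under this rule and scaling, the 21.9% in each direction is the background for every list count below. Without a scaling factor the share of called genes that were lower was 37.1%, and every log2 ratio moved up by 0.36. Hdc, which checks the sort, stood at 8750 CPM in CFP+ and 21.2 CPM in depleted cells, and all 6 listed genes of histamine-making endocrine cells were called higher (summed 82846 against 253 CPM), among them Chga (391-fold), Chgb (257-fold) and Sstr2 (6.32-fold). In such bulk libraries fewer cells of a type and less RNA per cell cannot be told apart.

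Of the 7 measured members 4, namely Pgc, Pga5, Cym and Chia1, were called lower in the CFP+ library and 0 were called higher, beside 21.9% of all measured genes in each direction. The median log2 ratio of the 7 was -1.99, and that of all measured genes was -0.03. The members did not move as a block: the 4 lower genes were 3.98-fold to 9.37-fold lower, Cblif less so, and both regulators had ratios above 1.

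Both pepsinogens were lower in the CFP+ library by nearly the same factor. Pgc, which encodes pepsinogen C, had 184929 counts (15187 CPM) in the CFP+ and 2716900 counts (60505 CPM) in the depleted library, 3.98-fold lower [3.97 to 4.003]. Pga5, which encodes a pepsinogen A, had 1351 counts (111 CPM) and 19889 counts (443 CPM), 3.99-fold lower [3.78 to 4.22]. The ratios of the 2 pepsinogens were thus alike within counting error, although their levels differed widely. Per kilobase of exon, Pgc stood at 10941 CPM in the CFP+ and 43592 CPM in the depleted library, the second and the third highest of 20194 protein-coding genes. Pga5 stood at 68.7 and 274 CPM per kilobase.

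Cym, which encodes chymosin, the milk-clotting protease typical of suckling animals, showed the lowest ratio of the members. It had 289 counts (23.7 CPM) in the CFP+ and 9990 counts (222 CPM) in the depleted library, 9.37-fold lower [8.34 to 10.6]. In the order of protein-coding genes by CPM per kilobase, Cym was at rank 157 in the depleted and rank 2056 in the CFP+ library. Chia1, the acidic chitinase gene, had 10099 counts (829 CPM) and 205131 counts (4568 CPM), 5.51-fold lower [5.40 to 5.62]. At 436 and 2401 CPM per kilobase it was the member with the most RNA after Pgc in both libraries.

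Cblif, which encodes intrinsic factor, was closest to parity among the enzyme and binding protein genes. It had 6002 counts (493 CPM) in the CFP+ and 38522 counts (858 CPM) in the depleted library, 1.74-fold lower [1.69 to 1.79], short of the 2-fold rule. Per kilobase it stood at 321 and 558 CPM, at rank 43 in the CFP+ and 49 in the depleted library. Lipf, the gastric lipase gene, was listed at 0 counts in both libraries. If its reads were counted like those of other genes, a count of 0 allows up to 0.246 CPM in the CFP+ and 0.0668 CPM in the depleted library. Whether the annotation used for counting could assign reads to Lipf was not tested, so no level is stated for it.

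**Figure D1:**
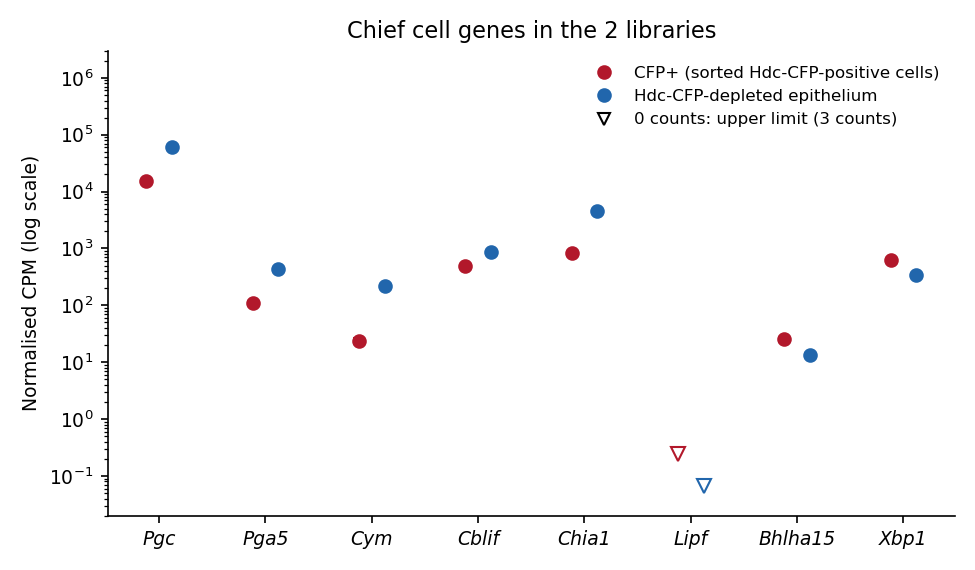
Normalised CPM (log scale) of the 8 genes in the CFP+ (red) and depleted (blue) library, 1 library each, with exact Poisson 95% intervals that are smaller than the points for most genes; open triangles mark the limit allowed by 0 counts. The enzyme genes with counts lie lower in the CFP+ library, from Pgc at 15187 against 60505 CPM to Cym at 23.7 against 222 CPM, whereas Bhlha15 and Xbp1 lie higher.

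The make-up of the enzyme counts within a library does not depend on the scaling. The 6 enzyme and binding protein genes together took 1.89% [1.88 to 1.90] of gene counts in the CFP+ and 5.87% [5.87 to 5.88] in the depleted library. Pgc made up 91.2% [91.1 to 91.4] of them in the CFP+ and 90.9% [90.8 to 90.9] in the depleted library. Pga5 had nearly the same share, with 7.31 counts per 1000 Pgc counts in the CFP+ and 7.32 in the depleted library, a ratio between the libraries of 0.998 [0.944 to 1.05]. Chia1 had 54.6 counts per 1000 Pgc counts in the CFP+ library against 75.5 in the other (0.723 [0.709 to 0.738]). Cym had 1.56 against 3.68 per 1000 (0.425 [0.377 to 0.478]). Cblif differed the other way, with 32.5 in the CFP+ library against 14.2, or 2.29 times as many per Pgc count [2.23 to 2.35]. Beyond counting error, the CFP+ library therefore held relatively more intrinsic factor and relatively less chymosin and chitinase RNA than the depleted one.

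**Figure D2:**
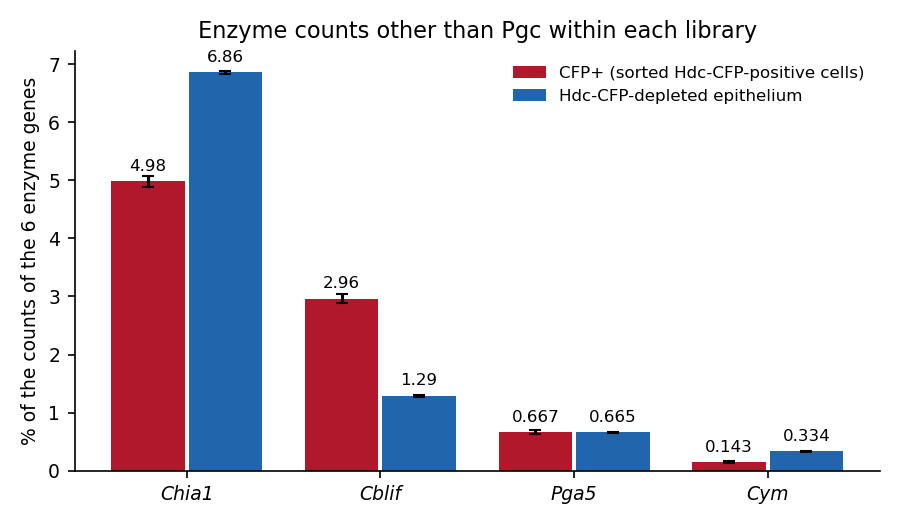
Share (percent) of Chia1, Cblif, Pga5 and Cym in the summed counts of the 6 enzyme and binding protein genes, in the CFP+ (red) and depleted (blue) library, with exact binomial 95% intervals; Pgc holds nearly all of the rest. Pga5 has 0.667% and 0.665%, Cblif 2.96% and 1.29%, Chia1 4.98% and 6.86%, and Cym 0.143% and 0.334% in the CFP+ and depleted library.

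Genes of the other epithelial cells of the corpus were also lower in the CFP+ library, to different degrees. All 11 measured parietal genes were called lower, with a median log2 ratio of -2.51, and their summed level was 2012 CPM against 14202 CPM. Kcnq1, at 2.01-fold lower, lost this call under 4 of the 5 other scalings, which left 10. Of 6 measured mucous neck genes 5 were lower (median -2.30, summed 862 against 7015 CPM), and of 6 measured surface mucous genes all 6 (median -5.39, summed 3867 against 160362 CPM). The surface genes Gkn1 (43.6-fold lower), Gkn2 (44.2-fold), Muc5ac (37.5-fold), Psca (22.7-fold) and Capn8 (56.2-fold) were far below the enzymes in ratio. Tff1, the remaining surface mucous gene of the list, named after its values were seen, was listed at 0 counts in both libraries. In M21 its exons overlap an antisense gene, and whether reads could be assigned to Tff1 in the counting was not tested. Set against single genes of these cells, the enzymes differed among themselves: per Atp4a count, the acid pump gene of parietal cells, Pgc was 1.43 times as abundant in the CFP+ as in the depleted library [1.40 to 1.46]. Chia1 was nearly level with Atp4a, at 1.04 [1.01 to 1.07], and Cym was below it, at 0.609 [0.539 to 0.685]. Atp4a itself stood at 886 against 5056 CPM and Muc6, the mucin gene of neck cells, at 569 against 2514 CPM, and Gkn3 was the neck cell gene not called, at 33.5 against 53.9 CPM. Atp4b, the other acid pump subunit gene, was 5.54-fold lower and Car2, a carbonic anhydrase gene, 19.0-fold lower. Per Muc6 count, Pgc was 1.11 times [1.08 to 1.14] and Cblif 2.54 times [2.45 to 2.64] as abundant. The neck cell genes did not give 1 answer: Tff2, a trefoil factor gene, stood at 253 against 4418 CPM, 17.4-fold lower, and per Tff2 count Pgc was 4.38 times as abundant [4.22 to 4.54]. Per Gkn1 count, the gastrokine gene of surface cells, Pgc was 10.9 times as abundant [10.8 to 11.1].

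**Figure D3:**
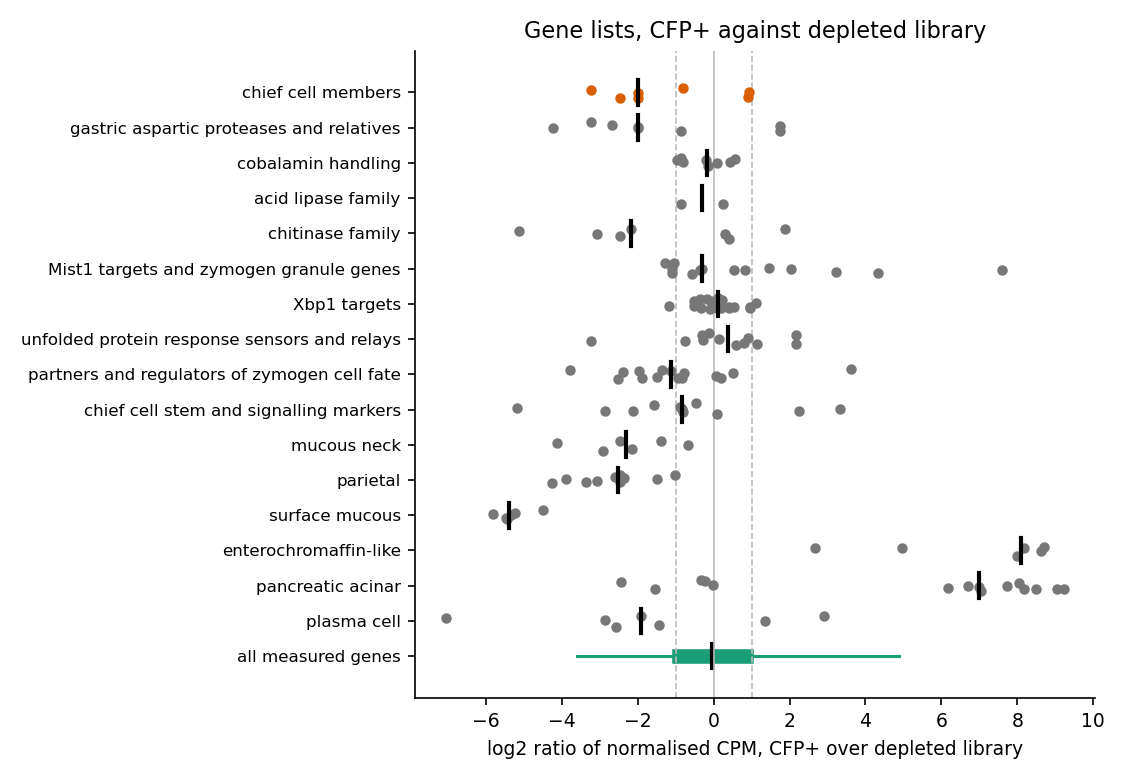
Log2 ratio of normalised CPM, CFP+ over depleted library, for every measured gene (dots) of each list, with the list median as a black bar; the bottom row gives all 16682 measured genes as the 5th to 95th percentile (thin line), the 25th to 75th (thick line) and the median. Dashed lines mark 2-fold, and genes at 0 counts in 1 library are placed at their bound. The chief cell members (orange) split into 5 genes below 0 and 2 genes, Bhlha15 and Xbp1, at 0.92 and 0.90.

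The 2 regulators did not follow the enzymes. Bhlha15 had 308 counts (25.3 CPM) in the CFP+ and 599 counts (13.3 CPM) in the depleted library, a ratio of 1.90 [1.65 to 2.18]. Xbp1 had 7766 counts (638 CPM) and 15313 counts (341 CPM), a ratio of 1.87 [1.82 to 1.92]. Both missed the 2-fold rule, and both passed it without a scaling factor, at 2.44 for Bhlha15 and 2.41 for Xbp1, and with the 20 most abundant genes left out of the total, at 2.18 and 2.15. Their proportion was nearly equal, with 39.7 Bhlha15 counts per 1000 Xbp1 counts in the CFP+ and 39.1 in the depleted library (1.01 [0.878 to 1.17]). Relative to Pgc, Bhlha15 was 7.55 times [6.56 to 8.68] and Xbp1 7.45 times [7.25 to 7.66] as abundant in the CFP+ library. Per kilobase Xbp1 stood at 196 and 105 CPM and Bhlha15 at 7.24 and 3.82 CPM, the lowest level of the measured members in both libraries. Gene counts do not separate the spliced, active form of Xbp1 from the unspliced form.

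Bhlha15 and Xbp1 are also genes of pancreatic acinar cells and of plasma cells, whose markers differed between the libraries too. Of 15 measured acinar genes among 20 listed, 10 were higher and 2 lower in the CFP+ library (median 6.98, summed level 15544 CPM against 5747 CPM). Rbpjl, an acinar transcription factor gene, stood at 602 CPM against 1.002 CPM, 600-fold higher [448 to 824]. Cel, a bile salt-activated lipase gene, was 532-fold higher [436 to 655] and Pnliprp1, a pancreatic lipase-related gene, 213-fold higher [203 to 224]. Clps, the colipase gene, was near level at 5502 and 5545 CPM, with a ratio from 0.919 to 1.28 over the scalings. Per Pgc count, Clps was 3.95 times as abundant in the CFP+ library [3.92 to 3.99]. The 2 lower genes were Cela1, with 435 counts against 4710 (2.94-fold [2.66 to 3.25]), and Sycn, a zymogen granule membrane gene, with 2 against 40. Pnliprp2 (517 counts against 2404, ratio 0.793) and Zg16 (18 against 78, ratio 0.851) were not called. Also higher in the CFP+ library were Prss2 (3483 counts against 44), Ptf1a (2067 against 29), Cela2a (892 against 26) and Amy2b (393 against 4). So were Gp2 (168 against 6), Ctrb1 (78 against 4) and Cela3b (36 against 1). Counts of Ptf1a, Cela2a, Amy2b and Cela3b are uncertain, since part of their sequence occurs in other genes. Cpa1, Pnlip and Cpb1 were at or near 0 in both libraries, with 0, 3 and 4 counts against 0, 2 and 1. Whether reads could be assigned to Cpa1 in the counting was not tested. The genes from Prss2 to Cpb1, and Cela1, Pnliprp2 and Zg16, were named after their values were seen. Of 7 measured plasma cell genes 2 were higher and 3 lower (summed 90.8 against 310 CPM). Sdc1, a syndecan gene also of epithelial cells, was 3.74-fold lower. Igkc, an immunoglobulin light chain gene, was 7.44-fold higher [5.36 to 10.4] at 9.28 CPM. The other higher gene was Jchain, with 22 counts in the CFP+ and 32 in the depleted library (2.54-fold [1.40 to 4.50]). In the CFP+ library Irf4 had 0 counts against 81 and Prdm1 had 1 count against 488. Jchain and Irf4 were named after their values were seen. The part of either cell type in the Bhlha15 and Xbp1 levels was not tested.

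Known MIST1 targets and other genes of zymogen granules showed mixed directions. Of 15 listed and measured genes, 5 were higher and 5 lower in the CFP+ library, with a median log2 ratio of -0.30. The 5 higher genes were Cplx2 (194-fold [165 to 231]), which acts in regulated exocytosis of neurons and endocrine cells as well, the secretory pathway calcium pump gene Atp2c2 (20.1-fold [17.3 to 23.5]), the granule GTPase gene Rab26 (9.35-fold [7.23 to 12.2]), Ccpg1 (4.13-fold [2.52 to 6.82]) and Serpini1 (2.74-fold [1.95 to 3.84]). Ccpg1 shares 53.6% of its 50-base words with other genes, so its count is uncertain. The 5 lower genes were Sel1l3 (2.44-fold [2.31 to 2.57]), the granule fusion genes Snap23 (2.15-fold [1.94 to 2.38]), Stxbp2 (2.13-fold [2.01 to 2.25]) and Vamp8 (2.12-fold [1.97 to 2.28]), and Derl3 (2.06-fold [1.46 to 2.99]). Without a scaling factor 6 were higher and 0 lower, beside 4741 higher and 2792 lower of all 16682 measured genes. Rab3d, a zymogen granule GTPase, stood at 285 against 365 CPM (ratio 0.781 [0.753 to 0.811]), and Rap1gap at 365 against 206 CPM (1.77 [1.71 to 1.83]). Of the genes called here, all but Cplx2 and Sel1l3 were named after their values were seen.

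The targets of XBP1 were nearly level as a group. Of 19 listed genes, all measured, 1 was higher, 1 was lower and 17 were neither, with a median log2 ratio of 0.11. Hyou1, a chaperone of the endoplasmic reticulum, stood at 575 CPM in the CFP+ and 263 CPM in the depleted library, 2.18-fold higher [2.12 to 2.25]. Edem1, which marks misfolded proteins for degradation, stood at 64.8 and 146 CPM, 2.25-fold lower [2.09 to 2.42]. Sec61a1, of the translocation channel, had a ratio of 1.13 [1.09 to 1.17] and Pdia6, a disulfide isomerase, one of 0.929 [0.899 to 0.960]. With no scaling factor 3 were higher and 0 lower, beside 4741 higher and 2792 lower of all 16682 measured genes. The Edem1 call therefore rests on the scaling.

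Among 12 measured sensors and relays of the unfolded protein response, 3 were higher and 1 lower (median 0.37), beside 21.9% of all measured genes in each direction. Without a scaling factor, or without the 20 most abundant genes in the total, 5 were higher and 1 lower. Of all 16682 measured genes, 4741 were higher and 2792 lower under the first setting, and 4209 and 3150 under the second. The 2 genes for IRE1, the enzyme that splices Xbp1 RNA, lay on opposite sides. Ern1, the widely expressed form, stood at 305 CPM in the CFP+ and 68.5 CPM in the depleted library, 4.46-fold higher [4.25 to 4.68]. Ern2, the form of mucus-secreting epithelia, stood at 29.3 and 278 CPM, 9.47-fold lower [8.52 to 10.5]. Creb3l2, a membrane-bound transcription factor gene related to Atf6, was 4.50-fold higher [4.24 to 4.78]. Ddit3, a stress-induced factor gene, was 2.22-fold higher [1.95 to 2.52]. Hspa5, the main chaperone of the response, was near level at 1528 and 1674 CPM (ratio 0.913 [0.898 to 0.928], above 1 without a scaling factor), with Atf4 at 1.11 [1.07 to 1.15] and Mbtps1, the protease that activates ATF6, at 1.88 [1.80 to 1.96]. Ern1 and Ddit3 were named after their values were seen.

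**Figure D4:**
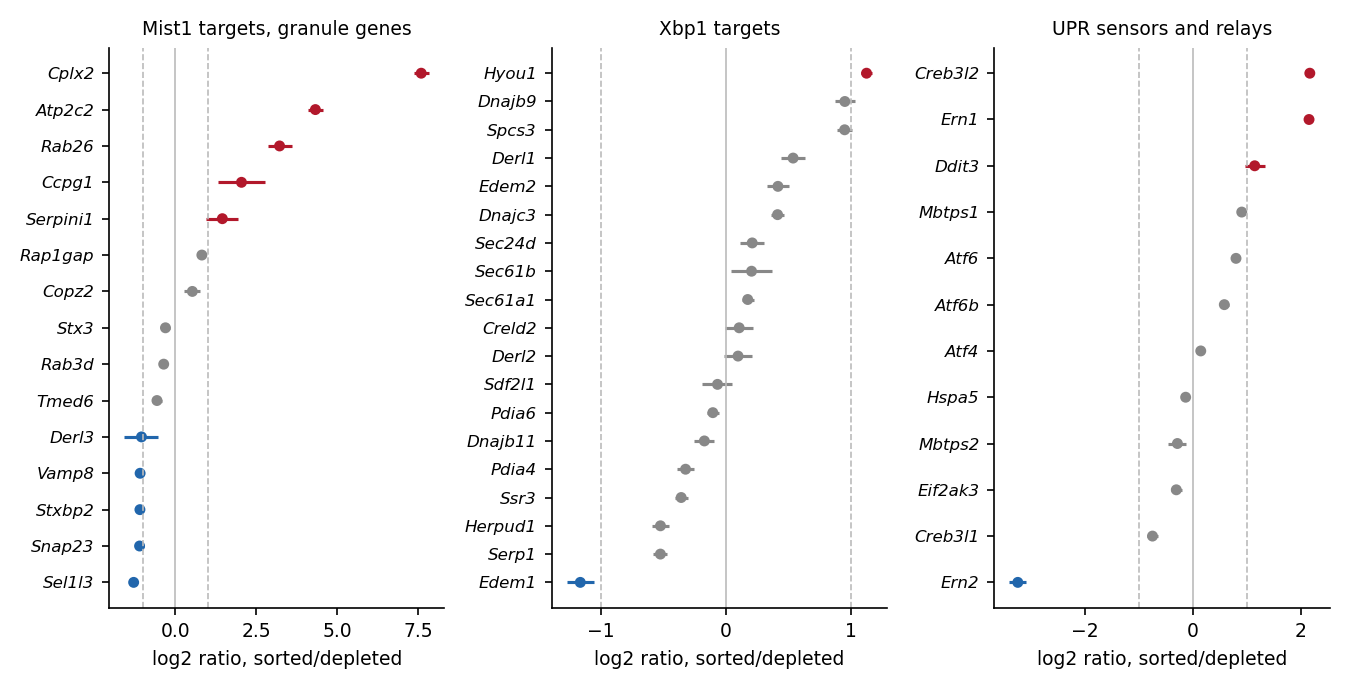
Log2 ratio of normalised CPM, CFP+ over depleted library, with exact 95% intervals for counting error, for MIST1 targets and granule genes (left), XBP1 targets (middle) and unfolded protein response genes (right); red marks genes called higher, blue genes called lower and grey neither, dashed lines mark 2-fold, and the horizontal scales differ between panels. The XBP1 targets lie close to 0, between Edem1 and Hyou1, while Ern1 and Ern2 lie far apart at 4.46-fold higher and 9.47-fold lower.

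Relatives of the enzymes gave context for each. In the aspartic protease list, which holds Pgc, Pga5 and Cym, 5 of 8 measured genes were lower and 2 higher. Ctse, the cathepsin E gene, stood at 125 against 2366 CPM, 18.9-fold lower [17.9 to 19.9], further down than any pepsinogen. Ctsd, the lysosomal cathepsin D gene, had a ratio of 0.548 [0.535 to 0.562], and it shares 32.4% of its 50-base words with an overlapping gene. Bace1 was 3.36-fold higher [3.13 to 3.61], and its count is uncertain, since it shares 28.5% of its 50-base words with other genes and its exons overlap 3 genes on the opposite strand. The other lower gene was Bace2, at 71.0 against 454 CPM, and the other higher one Napsa, on 10 counts against 11 (3.35-fold [1.28 to 8.69]), both named after their values were seen. Of 8 measured genes of vitamin B12 handling, 0 were called in either direction, and Tcn2, the B12 carrier of plasma, had a ratio of 0.554 [0.520 to 0.590], close to that of Cblif at 0.575 [0.559 to 0.590]. Abcc1, which exports B12 from cells, had the lowest ratio of the list, 0.508 [0.469 to 0.549], and Lmbrd1, of lysosomal B12 export, the highest, 1.49 [1.39 to 1.59]. Mmut, a B12-dependent mutase gene, had a ratio of 0.867 [0.813 to 0.924].

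In the chitinase family 4 of 7 measured genes were lower and 1 higher, and Chia1 was far above its relatives in both libraries. The other lower genes had few counts, with 1 against 129 for Chil4, 1 against 31 for Chil1 and 0 against 50 for Chit1, the last 2 named after their values were seen. The higher gene was Ovgp1, an oviduct glycoprotein gene, with 11 counts in each library (3.69-fold [1.45 to 9.38]). Chid1, an intracellular relative, stood at 86.1 against 65.3 CPM (ratio 1.32 [1.23 to 1.41]), and Ctbs, a lysosomal chitobiase gene, had a ratio of 1.23 [1.04 to 1.46]. In the acid lipase family, Lipa, the lysosomal acid lipase gene, stood at 27.3 against 49.9 CPM (0.548 [0.487 to 0.615]), and 7 of the 9 genes were not measured. The other measured one was Lipo3, with a ratio of 1.18 [0.979 to 1.41]. Counts of Chil4, Ovgp1 and Lipo3 are uncertain, since 11.0%, 26.6% and 24.2% of their 50-base words occur in other genes.

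Transcription factors that partner MIST1 or act in gland cell fate leaned to lower levels in CFP+ cells. Of 15 measured genes 8 were called lower and 1 higher, with a median of -1.12. Gata4, a foregut endoderm factor gene, stood at 164 against 610 CPM, 3.71-fold lower [3.54 to 3.88], and Id1, an inhibitor of basic helix-loop-helix factors such as MIST1, was 3.88-fold lower [3.63 to 4.15]. Runx1 was 13.7-fold lower [10.8 to 17.5]. Hnf4a, an endoderm factor known to act upstream of Xbp1 in the stomach, stood at 146 against 260 CPM (ratio 0.559 [0.532 to 0.588]). Nr5a2, with 10 counts against 0, was 12.3-fold higher with the depleted library held at the limit of 3 counts, and the exact interval of its ratio begins at 8.27-fold. Of the E-protein partner genes of MIST1, Tcf3 and Tcf12 had ratios of 1.14 [1.04 to 1.26] and 1.05 [0.978 to 1.12]. Tcf4 had a ratio of 0.173 [0.151 to 0.198] and was called lower. These E-protein genes were named after their values were seen.

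By likeness of log2 ratio over the 2 libraries, the nearest to Pgc among the 200 most abundant protein-coding genes were Actb, the beta-actin gene (4.002-fold lower), and Ucp2 (4.02-fold lower). Atp1b1 (1.76-fold lower) and Akr1a1 (1.71-fold lower) were nearest to Cblif. Son, at a ratio of 1.86, and Srrm2, at 1.82, were nearest to Xbp1. With 2 libraries, likeness of this kind is a single number per gene.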

How the data were processed

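RNA was sequenced from 1 library of sorted cells with Hdc-CFP and 1 of corpus epithelium without them, prepared with a TruSeq RNA kit per the labels' protocols. Reads were aligned with TopHat2 2.0.07 to mm9 and counted with HTSeq, per the submitters' processing notes. The annotation release and strand setting are not given in the sources used here. What the authors deposited are raw counts of reads for each Ensembl gene. The 5 rows that name no gene were left out; alignments that were not unique made up 24.2% (CFP+) and 34.3% (depleted) of all. Symbols came from GENCODE M21 by identifier, and lengths are the union of its exons. Since M21 is on GRCm38, no gene coordinates are given apart from RefSeq's own promoters.

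Scaling used edgeR 4.0.16 TMM factors over genes with at least 10 counts in 1 library, 1.13 (CFP+) and 0.882 (depleted). Ratio intervals are Clopper-Pearson intervals of the split of counts, ratios relative to another gene have exact conditional intervals, and CPM intervals are Poisson. Reads without molecular identifiers are not independent molecules. No p-value was computed. Medians hold genes at 0 counts in 1 library at a limit of 3 counts. No member shares exons with another gene in M21, and the share of 50-base words found in other genes was 0.321% for Bhlha15 and 0 for the others. The calculation of folds, intervals and calls was checked on simulated Poisson counts with known totals. That check does not cover the scaling, repeated reads of a molecule or variation between mice.

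The members, the 15 other gene lists and the rules were chosen with earlier results of these data known. Named from each list were the 3 measured genes of highest mean CPM and those of highest and lowest ratio, and for likeness the 2 genes nearest to Pgc, Cblif and Xbp1. The named genes also include some picked after their values were seen, which is said beside them. Alternatives were size factors of DESeq2 1.42.0, totals used with no factor, totals that leave out the 20 most abundant genes, upper-quartile factors, other count minimums and other folds. TMM over all genes and the longest transcript as gene length were added after seeing the data.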

Additional observations from a re-analysis of the deposited data

How the results depend on the processing

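The number of members called lower was 4 under all 5 other scalings and both other count minimums, 5 at a 1.5-fold rule and 2 at a 4-fold rule. The count minimums, at most 50, could not change the member calls, since each measured member had more counts than that in at least 1 library. The number called higher was 0, but 2 without a factor, 2 without the 20 most abundant genes and 2 at the 1.5-fold rule. Of all 16682 measured genes, 2792 were lower and 4741 higher without a factor. Without the 20 most abundant genes these were 3150 and 4209, and at the 1.5-fold rule 4894 and 4761. The 2 of 7 measured members called higher were thus near the share of all measured genes. Pgc was 3.10-fold lower without a factor, 3.47-fold without the 20 most abundant genes, 3.87-fold with upper-quartile factors, 3.93-fold with DESeq2 size factors and 4.30-fold with TMM over all genes. At the 4-fold rule 2009 genes were called lower and 2307 higher, against 3651 and 3652. All these moves follow from the factor or the threshold itself. Of 88 called genes in the lists 0 changed direction under another scaling. The 2-fold rule fixed this in advance, since the other scalings moved log2 ratios only by -0.11 to 0.36. Of 150 measured genes in the lists, 20 changed direction, none of them called. Calls themselves were both lost and gained: without a factor Edem1 lost its call, and Bhlha15 and Xbp1 gained one. The order of the members by CPM per kilobase was the same with the longest transcript as length. The ratio of Cblif to Pgc between the libraries stayed at 2.29 with 0.5 added to each count, an addition too small to move counts of 6002 and above. No paired analysis was possible because each group has 1 library, and leaving out a library leaves no comparison. Depth limits the genes with few counts, and variation between mice was not measured.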

Other observations

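Genes of chief cell signalling and of the cells at the gland base that were proposed as reserve stem cells were also compared. Among 11 such genes, all measured, 2 were called higher in CFP+ cells and 4 lower (median log2 ratio -0.83). Cckar, a cholecystokinin receptor gene, stood at 187 CPM in the CFP+ and 39.8 CPM in the depleted library, 4.71-fold higher [4.43 to 5.02]. Axin2, a target of Wnt signalling, stood at 19.2 and 1.92 CPM, 10.03-fold higher [7.80 to 13.0]. Sctr, the secretin receptor gene, had 32 counts against 4267 and was 36.2-fold lower [25.6 to 52.9]. The other lower genes were Egfr (7.34-fold [6.00 to 9.06]), Rnf43 (4.36-fold [3.58 to 5.36]) and Chrm1 (2.95-fold [1.96 to 4.64]), named after their values were seen. Bmpr1a, a BMP receptor gene, had a ratio of 1.06 [1.01 to 1.11]. Lgr5 and Tnfrsf19, named after their values were seen, marker genes of gland-base stem cells, stood at 2.63 against 4.85 CPM and 3.04 against 4.19 CPM, and neither was called.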
